A study of Homo sapiens with 7 samples.

Results

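In an assay of PAX3-FOXO1 occupancy, the 500 sites described here held the highest signal with DMSO, once the 20 highest were set aside. They were chosen by dividing the raw counts of both DMSO libraries by the library's total in sites, times 1000000 (counts per 1000000, CPM), averaging the 2 values, and taking ranks 21 to 520 of 5782 sites, which is 8.65% of the sites. Their level in DMSO is therefore fixed by the choice and is given as a description. The same holds for any change measured against DMSO, because a choice by high DMSO values favours falls.

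PAX3-FOXO1 is the fusion oncoprotein of alveolar rhabdomyosarcoma. It joins the paired domain and homeodomain of PAX3, which bind DNA, to the activation domain of FOXO1, and it is known for binding distal enhancers of myogenic and growth factor receptor genes, often in clusters of strong sites. Enhancers where many factors gather tend to give the strongest occupancy signal.

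Occupancy was measured by CUT&RUN, in which a nuclease tethered to an antibody releases the DNA under the bound protein for sequencing. The cells were Rh4, an established rhabdomyosarcoma line, with PAX3-FOXO1 fused to an FKBP degron, and the antibody was against HA. All groups share this tagged fusion and were crosslinked: 2 libraries with DMSO, 2 after 2 h and 2 after 4 h of 500 nM dTAG47, a small molecule that recruits an E3 ligase to the FKBP degron so that the tagged protein is degraded. Whether the cells are 1 clone is not stated in the labels, a library from cells without the tag is not among the 6 columns, and the uncrosslinked DMSO sample was not analysed here.

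Total counts in sites ran from 110440 in the 2 h library B to 380057 in the DMSO library B. Over the 500 sites the counts of the 4 h pair agreed within sampling noise (chi-square over its degrees of freedom 1.04, p = 0.248). The 4 h columns may therefore hold 1 sample. The DMSO and 2 h pairs gave 4.17 and 3.64, but this is not a like comparison. Sites whose counts do not follow the library totals, described below, raise the value where the totals of a pair differ. The totals of the 4 h columns are close, at 151360 and 156845. The fits below keep both columns, which can make p-values at 4 h too small, and counts of calls with the 4 h columns as 1 library are given beside them. Separate cultures are not named in the labels, so a p-value reflects only the spread of these 6 libraries, possibly a technical one. The 500 sites had median counts of 94 (A) and 169 (B) for DMSO, 104 (A) and 43 (B) for 2 h, and 63 and 64.5 for the 4 h columns. The lowest count at any of them was 60 with DMSO and 4 in a treated library. Depth therefore limits precision in the treated libraries also at the typical site, and most at sites that lost most of their reads.

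Within the set the DMSO level ran from 326 to 1082 CPM, a 3.32-fold range, with a median of 425 against 125 over all sites. The upper boundary is a modest step. Ranks 19 and 20, just outside, are chr20:48196518-48196918 and chr1:91852775-91853175 with 1206 and 1165 CPM, and ranks 21 and 22, just inside, have 1082 and 1081. The lower boundary cuts through a continuum, where the last 2 sites inside, chr20:45034971-45035371 and chr7:2535456-2535856, have 326.5 and 326.4 CPM and the first 2 outside 326.3 and 326.1. When each DMSO library ranked the sites alone, 405 sites were in ranks 21 to 520 of both DMSO libraries , which is 81% of each list.

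**Figure D1:**
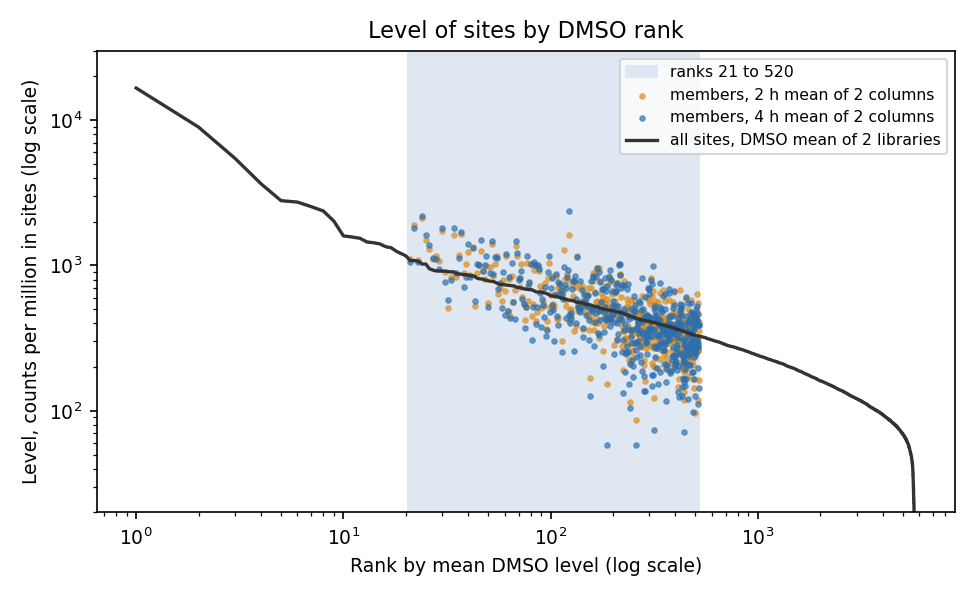
Level of each site in CPM (y axis, log scale) against its rank by mean DMSO level (x axis, log scale). The black line is the DMSO mean of 2 libraries over all sites, the shaded band is ranks 21 to 520, and points are the 2 h (orange) and 4 h (blue) means of 2 columns for the 500 sites; DMSO levels in the band run from 1082 to 326, and treated levels scatter on both sides of the line.

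The 10 highest sites of the set already held 2 kinds of count pattern. At chr1:108479579-108479979, rank 21, there were 249 (A) and 404 (B) reads for DMSO, 280 and 109 for 2 h and 159 and 167 for 4 h. Both 4 h columns and the 2 h library B lay below both DMSO libraries there, and the 2 h library A lay between them. At chr4:3831868-3832268, rank 23, the counts were 246 and 398 for DMSO, 263 and 115 after 2 h, 152 and 176 after 4 h, the same order of libraries. The site chr19:27731964-27732364, rank 22, had 318 and 287 DMSO reads (A, B), then 290 and 282 (2 h) and 282 and 276 (4 h). There the libraries hardly differed, although the DMSO library B has the largest and the 2 h library B the smallest total. At chr17:31149552-31149952, rank 24, the counts were 305 and 265 for DMSO, 359 and 293 after 2 h, 328 and 344 after 4 h, and at chr2:133035824-133036224, rank 30, they were 267 and 246, 272 and 247, and 273 and 288. These 3 of the 10 sites thus kept a near-constant raw count in all 6 columns. The 5 sites of ranks 25 to 29 are chr11:119514100-119514500, chr4:74316250-74316650, chr7:129996737-129997137, chr15:58746432-58746832 and chr1:1502812-1503212. Each had more reads in DMSO B (342 to 387) than in DMSO A (193 to 232), and 139 to 254 reads in a 4 h column. Ranks 25 and 26 did not have the order of libraries seen at rank 21. At rank 25 both 4 h columns (247 and 254) lay above DMSO A (232), and at rank 26 they (222 and 204) lay on either side of DMSO A (206).

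The sites were spread over 23 of 24 chromosomes, with 0 on chromosome Y. On 22 of those 23 chromosomes they made up between 4.7% (chromosome 5, 15 of 319 sites) and 11.6% (chromosome 9, 36 of 310) of the sites, around the 8.65% of all sites. Chromosome 20 stood apart in this count, with 37 of its 194 sites, or 19.1%. They were not evenly placed along it: 28 lay among the 102 sites between 40 and 60 Mb (27.5%), and 9 among the other 92 sites (9.78%). The median DMSO level of the 102 sites was 195 CPM, against 134 on the rest of the chromosome and 125 over all sites. Leaving the 500 sites out, the medians were 149.6, 125 and 117 CPM. The 28 sites held 1.26% (A) and 1.33% (B) of all DMSO counts, 1.22% (A) and 1.00% (B) of those at 2 h and 1.05% and 1.09% of the 4 h columns. Chromosome 20 held none of the sites with level DMSO counts described below. Copy number in these cells was not measured in the files, and its part in the count on chromosome 20 was not tested.

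By median distance the strong sites lay closer to other sites than the rest did; this is a description, with no test. The median distance to the nearest site of any strength was 39967 bases for the 500 sites, against 72727 bases for the 5282 others. Within 10000 bases of another site were 115 of the 500 (23%) and 744 of the others (14.1%). Between the strong sites themselves the median distance to the nearest strong site was 865595 bases, and 32 of the 500 lay within 10000 bases of another. A set of 500 is sparser than all sites by its size alone, and no set of equal size was compared. Those 32 form 13 groups with steps of at most 10000 bases, 10 pairs and 3 larger groups. The largest, chr2:133016253-133036224, covers 19971 bases with 6 of the 500 sites and a further 2 sites of ranks 1 to 20. The next are chr16:33963025-33974363 and chr10:42387099-42399567, with 3 each. The pair chr2:92290767-92297061 and the pair chr9:38673043-38682415 follow by summed level. Pairs on chromosome 20 lay at chr20:49952118-49956531, chr20:52226276-52228625 and chr20:52352457-52355209.

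**Figure D2:**
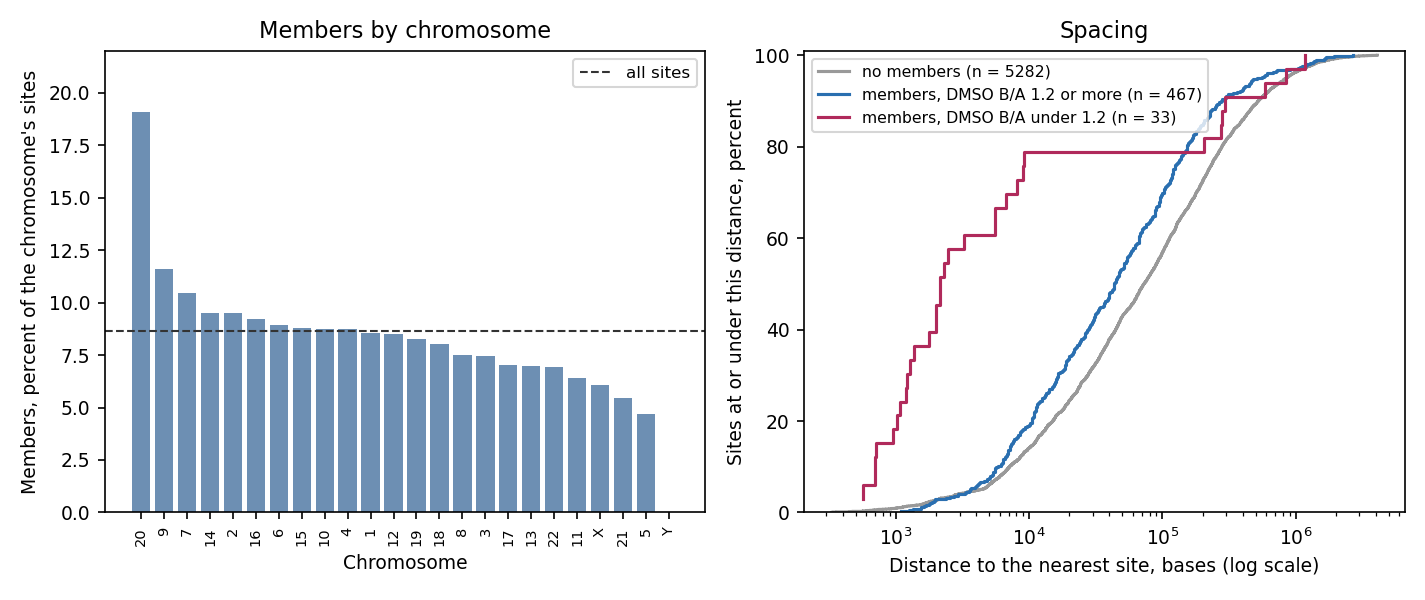
Left, the 500 sites as a percentage of all sites on each chromosome (bars), with the value over all sites, 8.65%, as a dashed line; chromosome 20 reaches 19.1%. Right, the percentage of sites (y axis) whose nearest site lies at or under a distance in bases (x axis, log scale), for sites outside the set (grey), the 467 sites with a DMSO B to A count ratio of 1.2 or more (blue) and the 33 under 1.2 (red); the red curve reaches 78.8% at 10000 bases.

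The near-constant counts seen among the top 10 recurred in a minority of the set. The ratio of DMSO B to DMSO A raw counts had a median of 1.85 over the 500 sites, in the direction of the 1.68-fold larger total of library B, but it was under 1.2 at 33 sites. Between 1.2 and 1.4 lay 13 sites, and 454 had a ratio of 1.4 or more. The limit of 1.2 was set after seeing these values. It is computed from the DMSO counts, but the near-constant pattern was first seen in all 6 columns, so the 2 h and 4 h values of the 33 sites are a description and no independent support. The ratio of 2 h A to 2 h B counts had a median of 1.17 at the 33 sites (range 0.904 to 1.57) and 2.46 at the 467 (range 1.31 to 7.75), while the totals of these libraries differ 2.07-fold. Across all 500 sites, which share the same 4 libraries, the DMSO and 2 h log2 ratios had a Pearson r of 0.53 and a Spearman rho of 0.21, and across the 467 an r of 0.01 and a rho of 0.04. The ratios have no gap at 1.2, with 3 sites between 1.1 and 1.2 and 6 between 1.2 and 1.3.

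**Figure D3:**
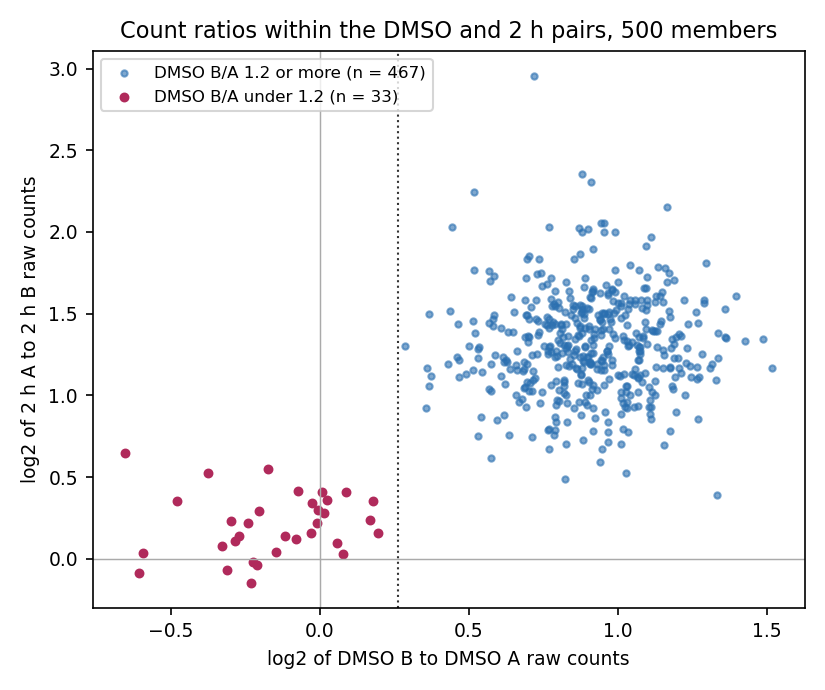
Each point is 1 of the 500 sites. The x axis is the log2 ratio of DMSO B to DMSO A raw counts, the y axis the log2 ratio of 2 h A to 2 h B raw counts, and the dotted line marks a DMSO ratio of 1.2. The 33 sites left of the line (red) lie at low ratios on both axes, and the 467 others (blue) centre on 1.88 in DMSO and 2.46 at 2 h on the linear scale, with points on both sides close to the line.

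Summed over the 33 sites, raw counts stayed level through the treatment. The sums were 5728 (A) and 5123 (B) for DMSO, 5732 (A) and 4904 (B) for 2 h, and 5435 and 5361 for 4 h. The 4 h mean was 0.995 times the DMSO mean. Over the 467 sites the DMSO sums were 47322 (A) and 88628 (B), the 2 h sums 52902 (A) and 21571 (B) and the 4 h sums 32082 and 33185, and the 4 h mean was 0.48 times the DMSO mean. Both 4 h sums of the 467 lay below both DMSO sums, while the 2 h library A lay between the DMSO libraries. The 33 sites took 10.8% (A) and 5.46% (B) of the set's DMSO reads, 9.78% (A) and 18.5% (B) of its 2 h reads and 14.5% and 13.9% of its 4 h reads. The share was lowest in DMSO B, the library with most counts, and highest in 2 h B, the one with fewest, and 2 h A lay below DMSO A.

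The level sites were also placed differently. Of the 33, 26 (78.8%) lay within 10000 bases of another site, against 89 of the 467 (19.1%), and the medians of the nearest distance were 2150 and 43260 bases. All 6 members of the group on chromosome 2 near 133 Mb and all 3 of each of the next 2 groups belong to them, and 5 of the 13 groups consist of such sites alone, while the other 8 hold none. Chromosome 2 had 9 of the 33, chromosome 10 had 6 and chromosome 16 had 5. From general knowledge of hg19, not from the files, chr2:92290767-92291167, chr7:61970175-61970575, chr10:42387099-42387499, chr11:51580362-51580762, chr16:46403499-46403899, chr18:18517060-18517460 and chr19:27731964-27732364 lie near the centromere of their chromosome. Others do not, such as chr6:119558440-119558840, with 150 and 142 DMSO reads (A, B), then 152 and 140 (2 h) and 145 and 150 (4 h), and no other site within 848774 bases. Without the 33, the 467 sites still had a shorter median nearest distance (43260 bases) than the 5282 sites outside the set. Counts in cells without the tag, which would show how much of a level count depends on the fusion, were not analysed here.

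The change in the treated columns was first described without any scaling, so that depth differences stay in it. The median of the 500 sites stood 1.84-fold below DMSO at 2 h and 2.12-fold below it at 4 h (log2 −0.88 and −1.09), and over all 5575 tested sites the medians were 1.91-fold and 2.12-fold lower. All 500 passed the filter on low counts. At 407 of the 500 sites (81.4%) neither 4 h raw count reached the lower of the DMSO counts, as at 80.3% of all tested sites. For the 2 h libraries this held at 197 sites (39.4%), against 50.2% of all tested sites. The fitted count at 4 h was at least 4-fold lower at 46 sites (9.2%), against 7.8% of all tested sites. In edgeR's quasi-likelihood test of unscaled counts (Benjamini-Hochberg adjusted p under 0.05), 29 of the 500 were called lower and 0 higher at 4 h, where 6.19% and 0% of tested sites were called, and 1 was called lower at 2 h, where 1.04% were. The rule used the DMSO values of these contrasts, so nothing is read from the counts.

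The size of the unscaled median change rested on single libraries. The counts of calls in this paragraph carry no share of all tested sites, so they show only how far the number moved. Leaving out the DMSO library A gave −1.46 at 4 h, and leaving out the DMSO library B gave −0.57. At 2 h the extremes were −1.68, with the 2 h library A left out, and −0.36, with the DMSO library B left out. The 29 calls at 4 h became 0 when the DMSO library B or either 4 h column was left out, and 14 when DMSO A was. With 2 h A left out there were 140 lower calls and 1 higher, and with 2 h B left out 137 lower and 1 higher. With the 4 h columns as 1 library there were 0 calls. To take the choice by DMSO out of the change, sites were also ranked on 1 DMSO library and compared with the other. Ranked on A and set against B, the median unscaled log2 change at 4 h was −1.44 over those 500 sites and −1.40 over all sites tested in that fit. Ranked on B and set against A, it was −0.58 and −0.64. In these comparisons the strong sites and the typical site differed by at most 0.06 on the log2 scale at 4 h, and at 2 h by 0.02 and 0.13.

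**Figure D4:**
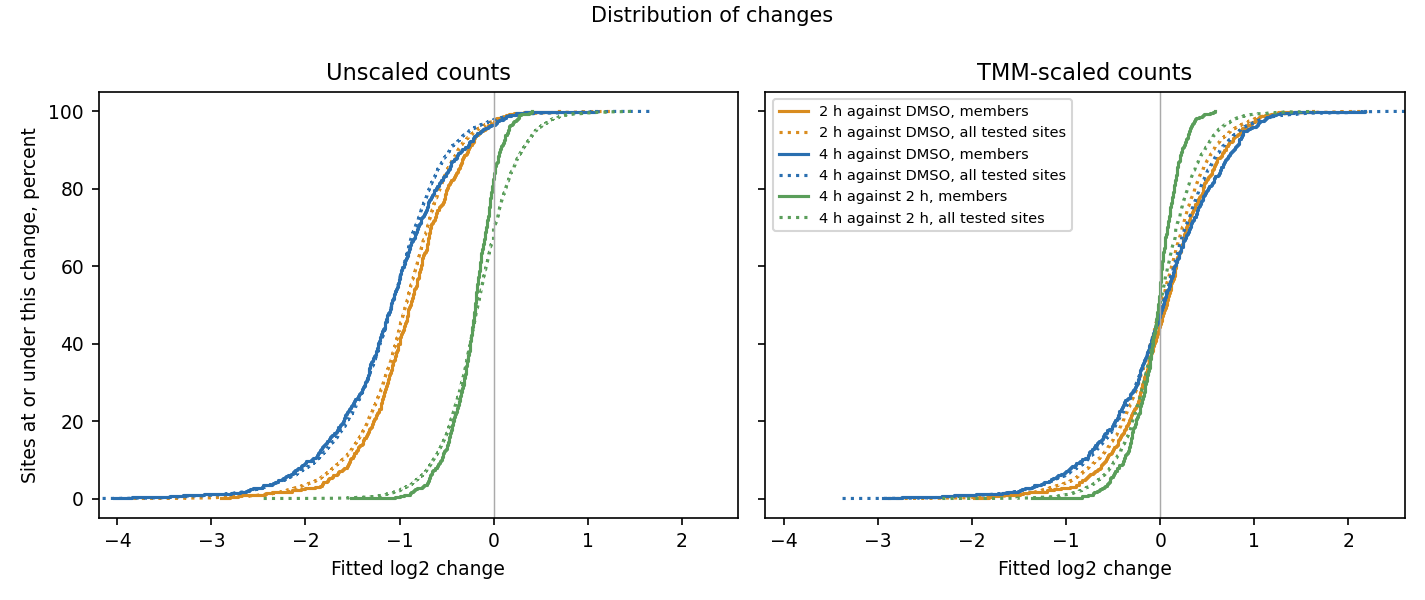
Cumulative percentage of sites (y axis) at or under a fitted log2 change (x axis), for unscaled counts (left) and TMM-scaled counts (right). Solid lines are the 500 sites and dotted lines all 5575 tested sites, for 2 h against DMSO (orange), 4 h against DMSO (blue) and 4 h against 2 h (green); unscaled medians against DMSO lie near −0.88 and −1.09 and scaled medians near 0.

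A second description set each site against the typical site with TMM factors, which remove a change common to most sites; the median of all tested sites at 4 h was 0.02 on this scale and −1.08 unscaled. The 500 sites had a median relative log2 change of 0.07 at 2 h and 0.03 at 4 h, and the middle 50% of the 4 h values ran from −0.38 to 0.40. At 2 h, 35 sites were called lower and 34 higher than the typical change (edgeR quasi-likelihood test, adjusted p under 0.05), where 4.07% and 2.49% of all tested sites were called. At 4 h, 74 were called lower and 66 higher, where 6.73% and 4.72% of all tested sites were called. In either direction these are 69 and 140 sites, against 6.57% and 11.4% of all tested sites. Strong sites hold more reads than the typical site, and whether the higher shares exceed what that gives was not tested. The comparisons at 2 h and 4 h share their DMSO libraries, which favours the same direction at both times. Of the 500, 34 sites were called lower at both times, 30 higher at both and 0 in opposite directions. The same count over all tested sites is not given, so this is not read as a trait of the strong sites.

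The calls of higher sites were in part the level sites. Of the 66 higher calls at 4 h, 25 were among the 33 sites with level DMSO counts and 41 among the 467 others; the 74 lower calls were all among the 467. The 33 had a median relative log2 change of 0.97 at 4 h and an unscaled one of −0.03, so they stood higher than the typical site on the TMM scale and near 0 in raw counts. A choice by a low DMSO B count also favours a higher value against DMSO. With the 4 h columns as 1 library 7 of the 33 were called higher at 4 h, where 2.71% of all tested sites were, and with DESeq2 or unscaled counts 0 were. The 41 other sites had a median unscaled log2 change of −0.35, and 2 of them had more reads at 4 h than with DMSO in the unscaled fit. The 74 lower sites had a median raw fall of 4.29-fold at 4 h, and their relative log2 changes ran from −2.95 to −0.65.

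The number of relative calls also rested on single libraries and on the test. Where no share of all tested sites stands beside a count, it shows only how far the number moved. The 140 calls at 4 h became 54 when 4 h A was left out, 45 when 4 h B was, 62 when DMSO B was, 68 with the 4 h columns as 1 library, where 8.16% of all tested sites were called, and 14 with DESeq2, where 0.915% were. The 69 calls at 2 h became 35 when 2 h B was left out, 20 when DMSO B was and 7 with DESeq2, where 0.502% of all tested sites were called. With no scaling, or scaled on the 20 sites above the set, the higher calls were 0 and 0 at 2 h and 0 and 1 at 4 h, so a higher call at these sites is a statement relative to the typical site. The 20 sites above the set mostly had level counts themselves, with a median DMSO B to A ratio of 0.924 and a median 2 h A to B ratio of 1.202, so that scaling on them comes close to no scaling.

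The largest relative falls left few reads at sites that had been among the strongest. At chr4:104331557-104331957, rank 187, there were 115 and 185 DMSO reads (A, B), then 35 and 17 (2 h) and 5 and 13 (4 h), a relative log2 change at 4 h of −2.95 (SE 0.285). At chr5:42855673-42856073, rank 259, there were 99 and 163 DMSO reads (A, B), then 31 and 4 (2 h) and 11 and 7 (4 h). At both sites all 4 treated columns lay below both DMSO libraries by a wide margin. By 4 h level they ranked 5000 and 4908 of 5782. At chr12:66998059-66998459, rank 315, the counts were 83 and 169 for DMSO, 23 and 16 after 2 h, 8 and 15 after 4 h (relative log2 change −2.32, SE 0.278). At chrX:105117301-105117701, rank 438, they were 71 and 149, 29 and 12, and 11 and 11. Here too the treated columns did not overlap the DMSO libraries. The same held at chr4:80076451-80076851, rank 242, with 100 and 172 DMSO reads (A, B), then 30 and 11 (2 h) and 17 and 15 (4 h), and at chr13:29305421-29305821, rank 155, with 112 and 219, 46 and 15, and 23 and 16. At 2 h the 6 largest relative falls were these sites but for the one on chromosome X, in whose place stood chr3:23632187-23632587, rank 495, with 60 and 151 DMSO reads (A, B), then 17 and 13 (2 h) and 21 and 18 (4 h).

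Among the 6 largest relative rises at 4 h, raw counts gained most at 1 site. At chr17:22020629-22021029, rank 122, there were 140 and 204 DMSO reads (A, B), then 384 and 174 (2 h) and 404 and 330 (4 h), so that both 4 h columns lay above both DMSO libraries and the 2 h library B did not. The relative log2 change at 4 h was 2.18 (SE 0.272) and the unscaled one 1.09, and the site ranked 15 by 4 h level. Whether this gain is occupancy by the fusion was not tested, and counts in cells without the tag were not analysed here. At chr14:57057185-57057585, rank 311, the counts were 99 and 143 for DMSO, 162 and 69 after 2 h, 148 and 158 after 4 h, with the 4 h columns just above DMSO B. The other 4 are level sites. At chr12:38543647-38544047, rank 216, the counts were 135 and 134 for DMSO, 141 and 121 after 2 h, 174 and 143 after 4 h, and at chr14:88237496-88237896, rank 213, they were 148 and 114, 193 and 134, and 156 and 153. The last 2 are chr17:31149552-31149952, given above, and chr2:133031102-133031502, rank 68, with 211 and 187, 257 and 176, and 207 and 245. Both 4 h columns lay above both DMSO libraries at the first 3 of these 4, by a smaller margin than at rank 122, and did not at the last. At 2 h the 6 largest rises held the site on chromosome 17 near 22 Mb and 5 level sites, among them chr7:61970175-61970575 with 180 and 145 DMSO reads against 185 and 194 after 2 h, chr2:133026594-133026994 with 151 and 171 and then 203 and 159, and chr2:133016253-133016653 with 123 and 104 and then 134 and 115.

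**Figure D5:**
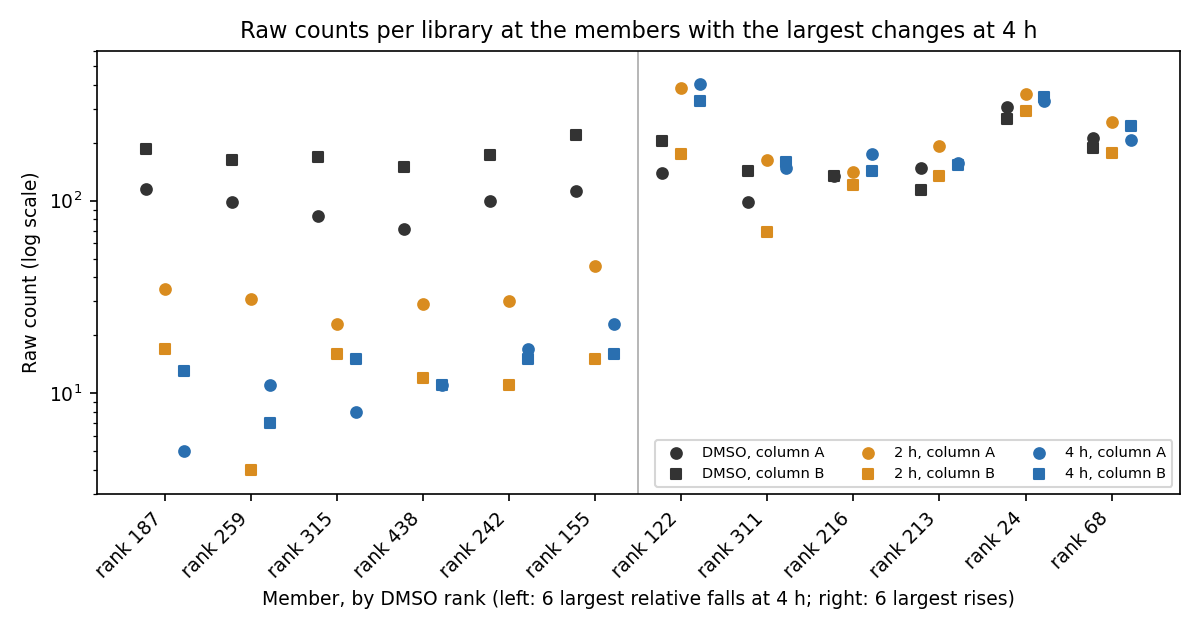
Raw counts (y axis, log scale) per library at the 6 sites of the set with the largest relative falls at 4 h (left) and the 6 with the largest rises (right), named by DMSO rank; circles are column A and squares column B of DMSO (black), 2 h (orange) and 4 h (blue). On the left the treated counts, 4 to 46, lie below all DMSO counts, 71 to 219; on the right they lie near the DMSO counts except at rank 122, with 404 and 330 at 4 h.

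The change was also described by rank within the set. In 5 bands of 100 ranks, from the strongest to the weakest, the median relative log2 change at 4 h was 0.30, 0.08, −0.14, 0.00 and −0.08. The level sites were concentrated in the upper bands, with 13, 11, 3, 3 and 3. Without them the medians were 0.14, 0.05, −0.17, −0.04 and −0.09, so the difference between the top band and the others became smaller. Lower calls at 4 h numbered 7, 8, 25, 17 and 17 and higher calls 18, 21, 12, 7 and 8 of 100 sites each, where 6.73% and 4.72% of all tested sites were called. These counts include the level sites, which gave 25 of the 66 higher calls and 0 of the 74 lower ones. Since the bands are ordered by DMSO level, these are descriptions.

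Spacing and change were compared among the 467 sites. Those with another site within 10000 bases had a median relative log2 change at 4 h of 0.00 (n = 89), those with the nearest site farther but within 100000 bases −0.03 (n = 237), and those beyond 0.01 (n = 141). The difference between neighbours was also described, with no test. Consecutive sites of the 467 at most 50000 bases apart differed by a median of 0.28 in relative log2 change at 4 h (27 pairs), and those over 1000000 bases apart by 0.49 (294 pairs). At chr20:49952118-49956531 both sites of the pair had relative log2 changes of −0.50 and −0.45, and at chr20:52352457-52355209 both had −0.22 and −0.21. At chr9:38673043-38682415 the pair ran from −0.24 to 0.84, so near neighbours did not always change alike.

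The order of sites was largely, but not wholly, kept in the treated columns. By mean level at 2 h, 374 of the 500 were again in ranks 21 to 520, 2 had moved above and 124 below. At 4 h the numbers were 357, 3 and 140. Past rank 1000 lay 35 sites at 2 h and 58 at 4 h. All 33 level sites stayed within the first 520 at both times. The set as a whole held 23.5% (A) and 24.7% (B) of all DMSO counts, 25.7% (A) and 24.0% (B) of those at 2 h and 24.8% and 24.6% of the 4 h columns. Its share at 4 h was 0.146 percentage points below that at 2 h, and exact permutation of 2 columns a group gave a two-sided p = 1, where the smallest possible is 0.333. With the 4 h columns as 1 sample the exact two-sided p was also 1, where the smallest possible is 0.667, so neither can pass 0.05. Leaving out the 2 h library B made it −1.002, and leaving out the 2 h library A turned it to 0.709.

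The change from 2 h to 4 h does not use the DMSO values that chose the sites. A loss common to most sites is removed by scaling and mixed with depth in the unscaled fit. Neither kind of fit can therefore show whether strong sites went on losing signal together with the rest. The scaled fits describe only single sites against the typical site. In the TMM-scaled edgeR fit 0 of the 500 sites were called (0% of all tested sites), with 29 of them, or 5.8%, at an unadjusted p under 0.05, where 5.76% of all tested sites had one. DESeq2 called 0, with 3 at an unadjusted p under 0.05, where 0.52% of all tested sites had one, and the unscaled fit called 0, with 0, where 0.197% had one. With the 4 h columns as 1 library edgeR called 0, with 12 at an unadjusted p under 0.05, where 4.65% of all tested sites had one. The median relative log2 change was −0.02, and the central 90% of the sites ran from −0.53 to 0.31. The unscaled median was −0.20, but with 2 h A left out it turned to 0.56, and with 2 h B left out it was −0.69.

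Single sites showed some spread between the treated times. The largest relative decrease was at chr4:104331557-104331957, given above (log2 −1.36, SE 0.371, edgeR adjusted p = 0.674). At chr15:59740982-59741382, rank 104, there were 138 and 236 DMSO reads (A, B), then 148 and 45 (2 h) and 51 and 42 (4 h) (relative log2 change from 2 h to 4 h −0.83, SE 0.241, edgeR adjusted p = 0.674). Both 4 h columns lay below the 2 h library A there but not clearly below the 2 h library B. At chr3:58567277-58567677, rank 359, the counts were 85 and 150 for DMSO, 49 and 23 after 2 h, 15 and 21 after 4 h. In the other direction the largest values were at chr14:57057185-57057585 (log2 0.58, SE 0.218) and chr17:22020629-22021029 (0.56, SE 0.261), both given above, followed by chr3:23632187-23632587 and chr22:27283487-27283887, with 2 h counts of 124 and 40 and 99 reads in both 4 h columns. The edgeR adjusted p of these 4 was between 0.843 and 0.938, and none of the 8 sites with the largest differences between the treated times passed the threshold.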

How the data were processed

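The authors deposited whole-number read counts, not normalized, for sites that span 400 bases. The submitters' processing notes name hg19 and the programs Genrich 0.6.1, Bowtie2, Trimmomatic 0.32, deepTools, DESeq2 and DiffBind. For site selection and duplicate reads, the steps are not given in the sources used. Of the table's value columns 0 were left aside. Column names give treatment and a letter, which is not tied to the labels' replicate numbers, and since the DMSO group without crosslinking has 1 sample, both DMSO columns were assigned to the crosslinked group. Coordinates are as the file gives them and may be off by 1 base. No hg19 genome or annotation was used here, so sites carry no gene names, sequences or motifs. Depth outside the sites is unknown; totals in sites ran from 110440 to 380057.

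Sites were filtered with filterByExpr (minimum count 10, minimum total 15; 5575 kept) and tested with edgeR 4.0.16 (R 4.3.3) in 1 quasi-likelihood fit of all 6 columns, treatment as the only term, with TMM factors (relative) or equal library sizes (unscaled), and Benjamini-Hochberg adjustment over all tested sites at 0.05. The SE of a log2 change is its size over the square root of F. Python 3.11.15 with scipy 1.17.1 gave the rest. Alternatives were no filter, DESeq2 1.42.0, other scalings, a replicate block, the 4 h columns as 1 library, each library left out, and ranking on 1 DMSO library. Sites named by rule were ranks 21 to 30, both edges of the rule, the 6 largest relative changes in each direction at each time against DMSO and the 4 largest from 2 h to 4 h, and the 5 groups with most members; others were chosen after their values were seen. The set, these rules and the limit of 1.2 were chosen with earlier results of these data known.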

Additional observations from a re-analysis of the deposited data

How the results depend on the processing

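Relative calls among the 500 sites at 2 h (69) became 7 with DESeq2, 1 with no scaling and 8 scaled on ranks 1 to 20, and ranged from 20 to 76 leaving out 1 library. At 4 h (140) they became 14 with DESeq2, 29 with no scaling, 64 scaled on ranks 1 to 20 and 68 counting the 4 h columns once, with a range of 45 to 171. The 4 h against 2 h count was 0 under every alternative run, which is no sign of stability. The median relative log2 change became −0.88 with no scaling and −0.82 scaled on ranks 1 to 20 at 2 h, −0.10 on totals, −1.09 with no scaling and −0.999 on ranks 1 to 20 at 4 h, and −0.20 with no scaling from 2 h to 4 h. Sites in the set had a neighbour within 10000 bases 1.55 times as often as all sites, and within 50000 bases 1.25 times. The cause was not tested. Where 1 library of a group was left, its spread was taken from the other groups. No share of all tested sites stands beside the counts of calls in this section, so they show only how far the number moved.

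Taking the letter of a column as a replicate block, the calls were 29 at 2 h, 79 at 4 h and 0 from 2 h to 4 h. The letters did not pair libraries: the correlation of A minus B across groups was −0.187, 0.0126 and −0.00565. Leaving out the 33 level sites, added after seeing the data, gave 49 calls at 2 h and 115 at 4 h. Of the values at named sites, 488 stayed on their side of the threshold, 58 lost a call and 0 calls changed direction. Values without a call could change sign and still be among the 488. For 4 h against 2 h, chr19:27731964-27732364 went from log2 −0.07 to 0.57 with 2 h B left out. With 2 h A left out, chr2:133035824-133036224 went from 0.10 to −0.36. The named sites were chosen by rank or for large changes in the same counts.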
